A study of Mus musculus with 7 samples.

Results

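The regions described here are the least methylated large blocks of the mouse autosomes in untreated primary dermal fibroblasts. They were chosen by cutting the 19 autosomes into 100-kb bins and taking the mean methylation of all cytosines marked CpG in each bin. Of 24731 autosomal bins, 23753 held at least 200 such cytosines, and the 2375 bins with the lowest means, 10.0% of those eligible, are called low-methylation bins. Their number includes 1507 gene-rich bins, overlapped by 2 or more loci of the untreated RNA-seq table, and 868 gene-poor bins, overlapped by 0 loci (222 bins) or 1 locus (646 bins). The highest mean of a low-methylation bin was 57.8%.

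All libraries came from primary dermal fibroblasts of female FVB/N mice that had been kept in culture for 8 days in DMEM/F12 medium with 10% serum. The series has 7 libraries in 6 groups: RNA-seq of untreated cells and of cells given thapsigargin for 3 h, CEBPB ChIP-seq of untreated and of thapsigargin-treated cells, ATF4 ChIP-seq of thapsigargin-treated cells, and bisulfite sequencing (BS-seq) of untreated genomic DNA. Each group has 1 library except BS-seq, which has 2, and the deposited table merges those into 1 percentage per cytosine. Thapsigargin empties the calcium store of the endoplasmic reticulum by inhibiting its pump, and so causes endoplasmic reticulum stress. No methylation of treated cells was analysed here, and with 1 library per group no difference has a replicate check, so no p-value is given. The number of animals behind a culture is not stated. All 10 fibroblast markers examined, Col1a1 and Pdgfra among them, had an untreated FPKM of 13.9 or more. They summed to FPKM 16040 untreated and 4094 treated. All 5 macrophage markers also reached FPKM 1 (summed FPKM 1005 untreated and 1072 treated, with Lyz2 at 879.7 untreated). So did all 4 muscle markers (summed 101 and 67.6) and 3 of 5 melanocyte and Schwann cell markers (41.6 and 5.92). Of 6 keratinocyte markers (summed 23.0 and 1.24), 5 lay between FPKM 2.79 and 7.17 untreated. Of 4 endothelial markers, 0 reached FPKM 1. Whether the mix of cells differed between the 2 RNA libraries was not tested. In a mixed culture the methylation percentages average over the cells present, and the part of cells other than fibroblasts in the values below was not tested.

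In mammals most CpG cytosines carry a methyl group, which is placed on both strands and copied after each cell division. Stretches dense in CpG, called CpG islands, usually stay unmethylated, and they mark the starts of most widely used genes and of many developmental regulators. Broad unmethylated valleys are known around the Hox genes and similar regulators, often under Polycomb repression, whereas cultured fibroblasts also have partially methylated domains, long gene-poor stretches of intermediate methylation. A mean over 100 kb can be low for either reason, so each bin was also described by its cytosines outside CpG-dense windows (500-base windows with 20 or more CpGs) and more than 2 kb from a locus end.

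The sequences below show what the low bins hold. They are the 200 bases with most CpGs in which at least 9 in 10 CpG cytosines were measured and no base was annotated as untranslated region, taken from some of the lowest bins and from the middle of the longest run of low bins. Capitals mark CpG sites. All are on the plus strand of build mm9 (NCBIM37). The first 3 lie wholly within coding sequence of the gene named, the Tfap2a and Skint5 stretches lie within those loci but outside coding exons, and the last one overlaps no annotated gene.
Hoxc9, chr15:102812341-102812540: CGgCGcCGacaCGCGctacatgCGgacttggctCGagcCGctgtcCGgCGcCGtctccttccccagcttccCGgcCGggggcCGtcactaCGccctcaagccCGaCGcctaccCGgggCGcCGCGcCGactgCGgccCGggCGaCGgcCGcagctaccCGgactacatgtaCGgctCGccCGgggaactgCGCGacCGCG
Hist1h2af, chr13:23625813-23626012: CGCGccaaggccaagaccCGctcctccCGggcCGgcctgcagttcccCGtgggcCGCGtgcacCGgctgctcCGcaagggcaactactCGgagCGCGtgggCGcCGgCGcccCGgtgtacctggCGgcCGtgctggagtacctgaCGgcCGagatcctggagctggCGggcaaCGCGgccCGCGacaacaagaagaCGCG
Pou3f2, chr4:22414990-22415189: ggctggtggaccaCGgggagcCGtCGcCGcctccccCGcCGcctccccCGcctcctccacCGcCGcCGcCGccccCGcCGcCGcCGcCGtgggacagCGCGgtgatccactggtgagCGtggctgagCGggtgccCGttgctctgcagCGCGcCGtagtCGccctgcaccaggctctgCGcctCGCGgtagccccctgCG
Tfap2a, chr13:40826773-40826972: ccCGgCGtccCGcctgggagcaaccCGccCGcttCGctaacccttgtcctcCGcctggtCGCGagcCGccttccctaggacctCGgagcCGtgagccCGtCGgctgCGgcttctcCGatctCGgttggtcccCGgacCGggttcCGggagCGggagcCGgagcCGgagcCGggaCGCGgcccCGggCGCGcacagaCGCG
Skint5, chr4:113471676-113471875: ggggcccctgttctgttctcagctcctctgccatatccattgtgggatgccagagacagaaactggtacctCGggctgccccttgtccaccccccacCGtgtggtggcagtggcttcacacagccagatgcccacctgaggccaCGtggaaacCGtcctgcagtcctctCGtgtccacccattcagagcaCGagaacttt
Immunoglobulin heavy chain region, chr12:116016122-116016321: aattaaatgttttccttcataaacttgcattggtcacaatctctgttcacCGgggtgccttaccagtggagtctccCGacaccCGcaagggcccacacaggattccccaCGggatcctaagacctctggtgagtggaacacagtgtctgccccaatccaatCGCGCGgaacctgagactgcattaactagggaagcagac

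The Hoxc9 stretch held 35 CpGs and averaged 0.60% methylation over 70 measured cytosines, none above 5%. The Hist1h2af stretch held 28 CpGs, and all 54 measured cytosines were at 0%. The 2 gene-poor developmental loci were alike in this, with 29 CpGs at a mean of 0.69% over 58 cytosines in Pou3f2 and 31 CpGs at 0.34% over 62 in Tfap2a. The Skint5 stretch was of another kind, with 6 CpGs and 11 measured cytosines from 0 to 86% (mean 56.4%). So was the immunoglobulin stretch, with 7 CpGs and 13 measured cytosines from 0 to 100% (mean 62.7%). In the lowest gene-poor bin, which also lies within Skint5, the stretch chosen in the same way (not shown) held 2 CpGs, and its 4 measured cytosines were at 0%. The densest sequence shown for the first 4 bins was thus almost free of methylation, while the stretches of the last 2 bins held few CpGs of mixed methylation.

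The selecting values themselves give the scale of the difference and are a description only. The median bin mean was 68.05% over all 23753 bins and 53.6% over the low-methylation bins, with 53.1% in the gene-rich and 54.4% in the gene-poor ones. The 3 bins just inside the limit had means of 57.7845, 57.7855 and 57.7867%, and the 3 just outside 57.7898, 57.7901 and 57.7943%, so the limit cuts a continuous distribution. The plus-strand and minus-strand means of a low-methylation bin differed by a median of 0.471 percentage points and at most by 18.6.

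**Figure D1:**
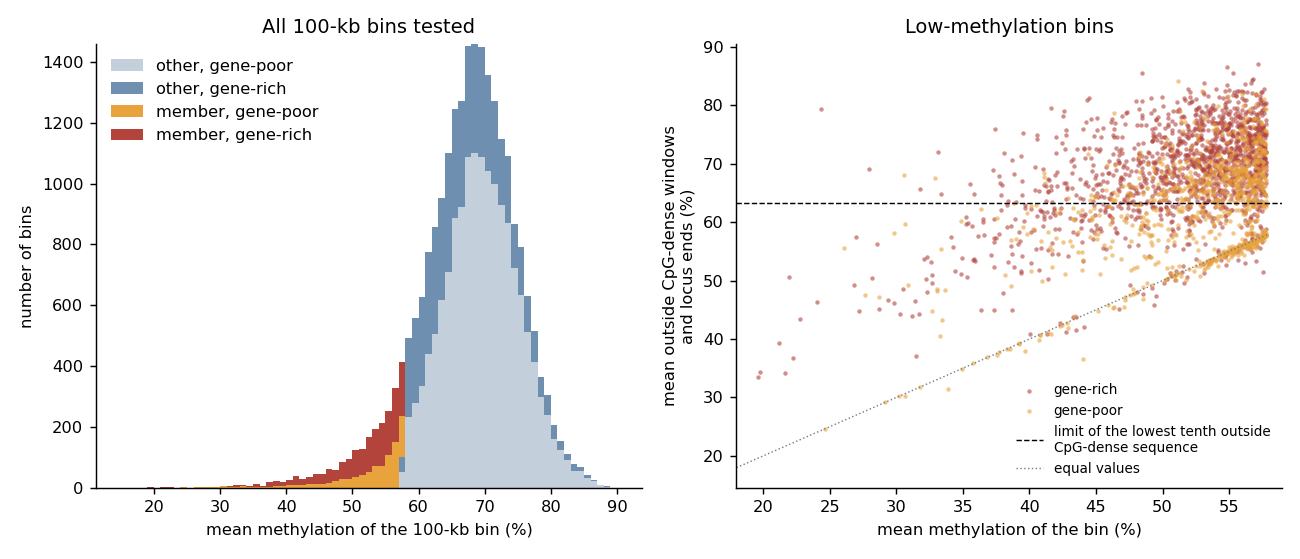
Left, number of 100-kb bins (y axis) by mean methylation in percent (x axis), stacked by class; right, each low-methylation bin by its mean (x axis, percent) and its mean outside CpG-dense windows and locus ends (y axis, percent). The low-methylation bins are the left tail up to 57.8%; many gene-poor bins lie along the dotted line of equal values, but their median outside dense sequence is 62.7% against 54.4% for the whole mean, and in gene-rich bins it is 69.3% against 53.1%; the dashed line is the 63.3% limit of the lowest 10.0% outside dense sequence.

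Outside CpG-dense windows and locus ends, the median of the low-methylation bins was 67.0%, against 71.2% over all bins. The gene-rich ones had a median of 69.3% there, and the other gene-rich bins 74.4%. The gene-poor ones had a median of 62.7%, and the other gene-poor bins 70.5%. CpG-dense windows held 24.8% of the measured cytosines of the median gene-rich low bin and 8.93% in other gene-rich bins, with 15.5% against 0.843% for gene-poor bins. Their cytosines had a median mean of 5.69% in low-methylation bins, 12.6% in other gene-rich bins and 81.0% in other gene-poor bins. Low bins held more CpG-dense sequence, and what lay outside it was less lowered than the whole-bin mean. Both are parts of the mean that chose the bins, so this too is a description only.

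The bins were divided further, after these values had been seen. A bin qualified if its mean outside dense sequence, over 200 or more cytosines there, was also in the lowest 10.0% of bins (63.3% or less). Of 2375 low-methylation bins, 779 (32.8%) met this and are called low throughout, against 10.0% of all bins. They make up 32.8% of the 2372 bins that were lowest by that other mean, so most bins that were low outside dense sequence did not enter the set chosen by the whole mean. The division was unequal between classes: 448 of 868 gene-poor low bins were low throughout, but only 331 of 1507 gene-rich ones. In the gene-poor bins low throughout, dense windows held a median of 3.87% of cytosines, CpG density was 6.17 per kb, and 53.7% of cytosines were between 20 and 80% methylated (mean over bins), close to the 53.4% of other gene-poor bins. They differed from those in the cytosines under 20% (24.2% against 6.02%) and above 80% (22.0% against 40.6%). In the gene-rich bins low throughout, density was 12.9 per kb and 32.4% of cytosines were under 20%. The other 1176 gene-rich low bins had a median of 71.3% outside dense sequence, and the other 420 gene-poor ones 68.01%. These 1596 bins, all that did not meet the condition, are called low with dense sequence only. The name is a label, since both medians were still below the 74.4% of other gene-rich and 70.5% of other gene-poor bins. Some of the 1596 bins had fewer than 200 cytosines outside dense sequence. In chr14:7200001-7300000, for example, there were 95, with a mean of 55.5%. Of the 1596 bins, 2 had no cytosine in dense windows, and the lowest mean outside dense sequence was 49.6%.

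**Figure D2:**
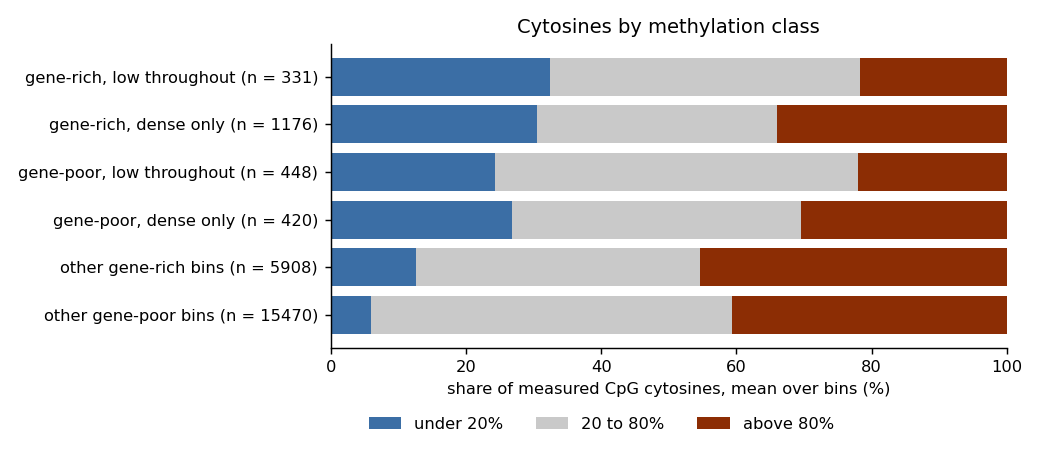
Share of measured CpG cytosines under 20%, from 20 to 80% and above 80% methylated (x axis, percent, mean over bins) for the 4 classes of low-methylation bins and for other bins; n is the number of bins. Cytosines above 80% made up 22.0% in gene-poor bins low throughout and 34.0% in the other gene-rich low bins, against 45.3% in gene-rich and 40.6% in gene-poor bins outside the set.

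Measurement was thinner in some of these bins. Fewer than 50% of the reference CpG cytosines had a value in 128 low-methylation bins (5.39%), against 1.42% of all eligible bins. The share was 11.9% of gene-poor low bins, 18.97% of those low throughout, and 65 of 222 low bins with 0 loci. The part of thin measurement in the low means was not tested. Read depth per cytosine is unknown, since the deposited table gives percentages alone.

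By the mean over all cytosines, low methylation was more frequent where loci were more numerous. The share of bins in the set was 2.69% of 8247 bins with 0 loci, 7.98% with 1, 13.5% with 2, 17.7% with 3, 23.7% with 4 and 30.1% with 5 loci. It reached 53.9% of the 631 bins with 6 or more loci. Gene-rich bins were 31.2% of all eligible bins and 63.5% of the low ones. This direction turned with the measure: among bins chosen by their mean outside dense sequence, 606 of 2372 (25.5%) were gene-rich. By chromosome the share ran from 5.46% of the bins of chromosome 16 to 17.3% of those of chromosome 7.

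At the limit of 57.8% most low bins had no low neighbour, but run length depends on this limit, which cuts a continuous distribution. They formed 1731 runs of adjacent bins, of which 1382 were single bins and 135 were runs of 3 or more, holding 565 bins. A low neighbour was found beside 41.8% of low-methylation bins and beside 14.7% of other bins. Methylation around gene-poor bins low throughout changed gradually: outside dense sequence the median was 56.5% in the bin, 60.7 and 61.3% in the bins next to it, and 66.7 and 66.9% at 1000 kb. Their whole mean was 53.6% in the bin, 59.7 and 60.1% beside it, and 63.1 and 63.8% at 1000 kb. Around the other gene-poor low bins the whole mean stepped from 55.1% in the bin to 68.7 and 68.8% in its neighbours. At 1000 kb it was 69.1 and 67.7%. Outside dense sequence these other bins had a median of 68.01%, with 70.4% on either side and 71.4 and 70.7% at 1000 kb.

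**Figure D3:**
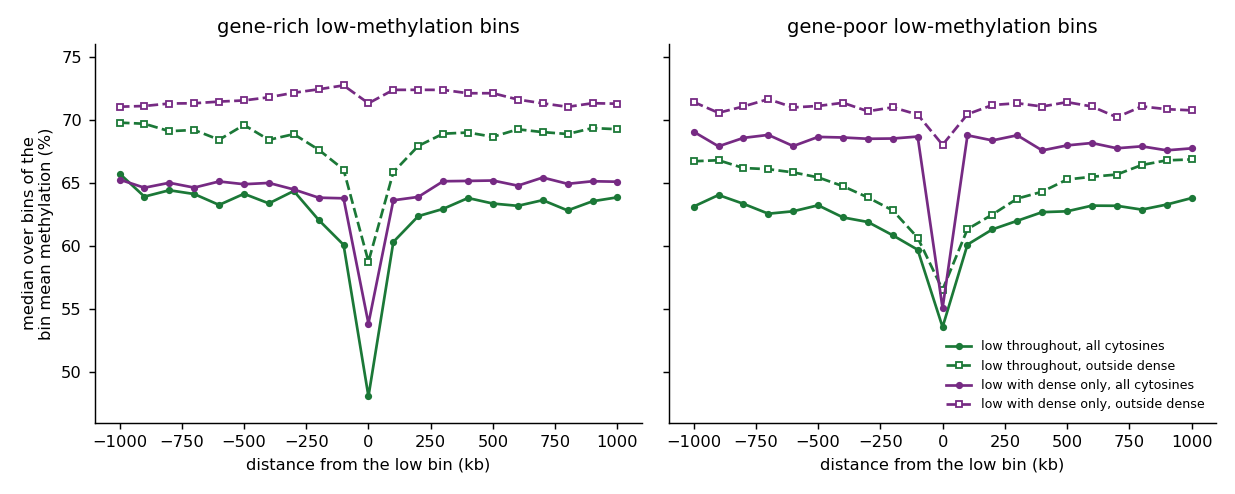
Median over bins of the mean methylation in percent (y axis, from 46 to 76) by distance in kb from a low-methylation bin (x axis), for gene-rich (left) and gene-poor (right) bins; solid lines use all CpG cytosines, dashed lines those outside CpG-dense windows and locus ends, and colours mark bins low throughout and low with dense sequence only. Outside dense sequence, gene-rich bins low with dense sequence only show almost no dip (71.3% in the bin, 72.7 and 72.4% beside it), while gene-poor bins low throughout sit in a broad trough. The classes were divided by this same mean, so the contrast of the dashed lines at the bin itself follows from the division.

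The longest run was chr12:114800001-117200000, 24 adjacent bins with a median mean of 42.6% (34.95 to 55.3%), all 24 low throughout. It overlaps 0 loci of the RNA table, and 109 of its 113 GENCODE genes are variable segments of the immunoglobulin heavy chain, the gene parts that B cells join to make antibodies. Only 0.906% of its measured cytosines lay in dense windows, and 53.9% were between 20 and 80% methylated. The 10 bins flanking it had a median of 59.4%. Of all 326 immunoglobulin variable genes of the annotation in eligible bins, 145 (44.5%) started in gene-poor low-methylation bins and 0 in gene-rich ones. The gene-poor share was 3.20% for protein-coding genes and 4.20% for pseudogenes. Of the 145, 135 started in bins with 0 loci. The RNA table lists no locus over this run, so their class as gene-poor follows largely from the definition. A median of 52.5% of the CpG cytosines of this run had a value, so nearly as many were unmeasured.

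The second run, chr4:113000001-114100000, covers 11 bins at a median of 37.6%, of which 10 were low throughout. It holds Skint5 and Skint11, members of a butyrophilin-like family known for its part in the selection of epidermal T cells. Both were silent, with Skint5 at FPKM 0.0068 untreated and 0.0099 treated and Skint11 listed at 0 in both libraries. The remaining locus of the 3 that overlap the run, Gm12824, extends beyond its end and was at FPKM 0.926 untreated and 2.55 treated. A median of 41.1% of CpG cytosines was measured, the thinnest of the 4 longest runs. The bin chr4:113300001-113400000 within Skint5 had the lowest mean of all gene-poor bins, 24.7% over 319 cytosines, and 0 of them lay in dense windows.

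The next runs, chr10:79100001-80100000 and chr10:80200001-81200000, had 10 bins each and the opposite make-up. Their medians were 48.4% and 51.0%, but 72.4% and 70.1% outside dense sequence, with dense windows holding 39.5% and 34.5% of cytosines. They hold 64 and 61 loci, of which 47 and 40 reached FPKM 1 in untreated cells. Among these are Rps15, a protein of the small ribosomal subunit (FPKM 641 untreated and 441 treated), Bsg, a membrane glycoprotein (355 and 286), and Eef2, the elongation factor that moves the ribosome (1039 and 503). Each run had 32 ATF4 peaks.

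The 5 lowest gene-rich bins were all low throughout and held developmental or histone gene clusters. The bin chr15:102800001-102900000, with Hoxc4, Hoxc5, Hoxc6, Hoxc8, Hoxc9 and part of Hoxc10, averaged 19.6% over 3331 cytosines. Its neighbour chr15:102700001-102800000, with Hoxc10 to Hoxc13, averaged 19.7%, and the Hoxd bin chr2:74500001-74600000 averaged 21.2%. The bin chr9:91200001-91300000 holds Zic1 and Zic4, zinc finger factors of neural development, and averaged 21.6%. The bin chr13:23600001-23700000, with 15 loci of the main histone cluster, averaged 22.0%. In the Hoxc bin 63.7% of cytosines were under 20% and 2.76% above 80%, and outside dense sequence the mean was still 33.5%. The histone bin differed in this respect, with 0.152% in dense windows but 50.5% outside them.

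The gene-poor counterparts were bins of single developmental genes or of poorly measured sequence. The bin chr4:22400001-22500000 has Pou3f2, a neural POU-domain factor, as its only locus and averaged 27.6%. The bin chr13:40800001-40900000 has Tfap2a, a factor of neural crest and epidermis, and averaged 28.7%. Of these genes, Pou3f2 was at FPKM 0.014 untreated and Tfap2a at 2.01. The bins chr4:113400001-113500000, within Skint5, and chr14:7200001-7300000, with 0 loci, averaged 29.2% and 26.1%. In the chromosome 14 bin only 20.3% of CpG cytosines had a value.

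Gene families were counted by the bin that holds the midpoint of each gene. Of all 22073 genes in eligible bins, 24.6% lay in low-methylation bins. All 39 Hox genes did, and 36 of them lay in bins low throughout. So did 113 of 162 genes (69.8%) of other developmental transcription factor families, 68 of 70 replication-dependent histone genes (97.1%) and 49 of 59 clustered protocadherins (83.1%), which give neurons single-cell identities. Shares near the background were seen for defensins (14 of 54) and zinc finger proteins (79 of 359). Families known from sense organs or liver had smaller shares, with 78 of 1112 olfactory receptors (7.01%), 49 of 290 vomeronasal receptors (16.9%), 0 of 35 taste receptors and 7 of 105 cytochromes P450 (6.67%). Most of the olfactory (64) and vomeronasal (43) genes that did lie in low bins were in bins low throughout, and 0 of either family reached FPKM 1. These lists were chosen with results of these data known, genes of a family lie side by side and share bins, and no family was tested.

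**Figure D4:**
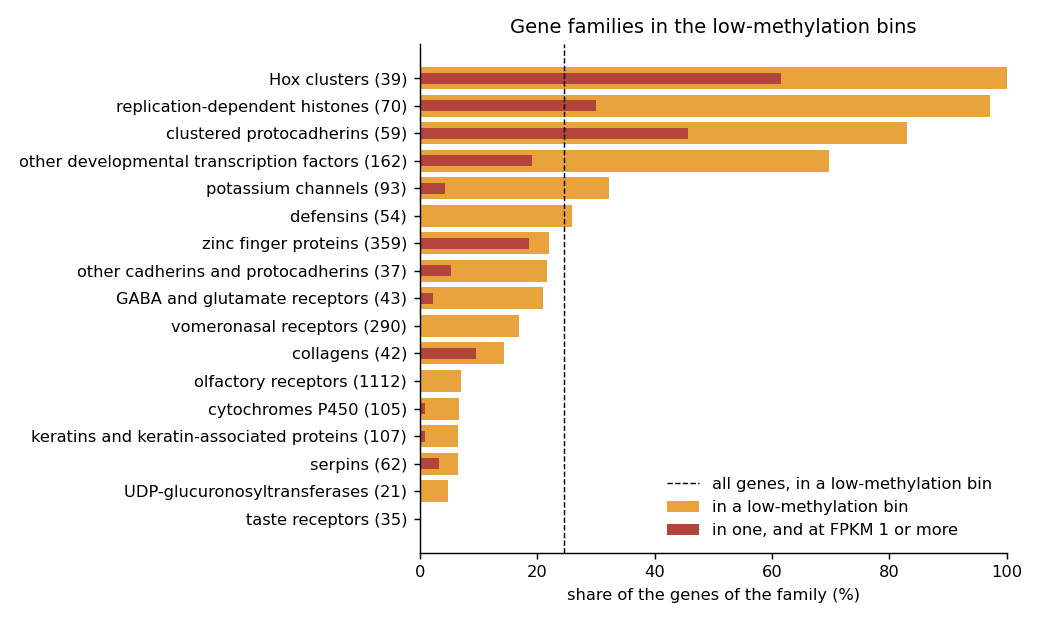
Share of each gene family (x axis, percent; number of genes in brackets) that lay in low-methylation bins (wide bars), and in one while reaching FPKM 1 in untreated cells (narrow bars); the dashed line is the 24.6% of all genes. Hox genes, histones, clustered protocadherins and other developmental factors stand to the right of the line, olfactory receptors and keratins to its left.

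With the bins as chosen here, expression in the 2 classes of low bins differed from other bins in opposite directions. In the untreated library 51.9% of all 22073 genes were at FPKM 1 or more (a fragment count scaled by transcript length and library size). In gene-rich low bins the share was 58.2% of 5120 genes (95% Wilson interval 56.8 to 59.5%), against 49.6% in other gene-rich bins. In gene-poor low bins it was 41.2% of 306 genes (35.8 to 46.8%), against 52.3% of 3726 genes in other gene-poor bins. The median FPKM was 2.97 against 0.917 for gene-rich bins, and 0.273 against 1.33 for gene-poor bins. With bins chosen by their mean outside dense sequence instead, the shares were 17.1% in gene-rich and 11.3% in gene-poor bins. The raised share of gene-rich low bins was thus not seen with that choice, and the reason was not tested. With bins chosen by their median the shares were 43.9% and 19.6%, both below the 51.9% of all genes. The gene-poor share was nearer that value with 2 other choices of bins. It was 47.9% (42.5 to 53.3%) with bins from position 50000. Among bins with 50% or more of CpG cytosines measured it was 45.3% (39.6 to 51.1%). The gene-rich shares were then 59.4% and 59.2%. The intervals cover counting error over genes of 1 library only, and neighbouring genes are not independent.

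The division by methylation outside dense sequence set these shares apart more than gene number did. In bins low throughout, 268 of 912 genes of gene-rich bins (29.4%) and 21 of 137 genes of gene-poor bins (15.3%) were at FPKM 1 or more. In the other low bins the shares were 64.4% and 62.1%. The Wilson interval of the last was 54.6 to 69.1%, and that of gene-poor bins low throughout 10.2 to 22.3%. These intervals are no test of the division, which was made after values had been seen. They cover counting error over genes of 1 library, and genes share bins and neighbours. Genes listed at 0 made up 50.4% of the gene-poor and 43.1% of the gene-rich bins low throughout, against 28.1% of all genes.

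Hox genes were expressed at modest levels, and 24 of 39 reached FPKM 1 in untreated cells. The highest were Hoxd8 (FPKM 19.9 untreated and 21.9 treated), Hoxc8 (15.7 and 8.72), Hoxc6 (11.3 and 18.03) and Hoxb9 (10.9 and 59.3), all homeobox factors that set position along the body axis. Hoxa13 (0.207), Hoxb13 (0.013) and Hoxc12 (listed at 0) were near 0 untreated, though their bins averaged 32.1, 38.7 and 19.7%. Low methylation of the bin thus went with levels from 0 to about 20 within the same family. Among the other developmental transcription factor families counted above, Twist1, a mesenchymal helix-loop-helix factor, had the highest level (94.0 untreated and 89.6 treated, bin mean 34.9%). Next within these families were Sox4 (64.0 and 14.5), Irx1 (57.9 and 33.7) and Sox10 (23.4 and 4.31), the last a factor of Schwann cells and melanocytes. The part of such cells in these values was not tested.

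The most abundant genes of the gene-rich low bins were fibroblast matrix and housekeeping genes. Col1a1, a chain of type I collagen, was at FPKM 6473 untreated and 884 treated, in a bin averaging 49.2%. Sparc, a matrix glycoprotein, was at 4489 and 3281, and Lgals1, galectin-1, at 2111 and 702. Others among the 10 highest were Gnas, Ftl1, Gnb2l1, Eef2 and the ribosomal protein genes Rpl8 and Rps9, between 1037 and 1320 untreated. Gene-poor low bins reached lower levels. Their highest gene was Marcks, a membrane-bound substrate of protein kinase C, at 289 untreated and 96.5 treated in a bin averaging 46.3%. It was followed by Sept7 (134), the ribosomal RNA precursor locus Rn45s (133), Nptn (113), Csda (105), Sept9 (98.0), Prrx1, a mesenchymal homeobox factor (84.7), Ywhaz (82.4), Ndn (66.3) and Gadd45g (65.1). The treated value of Sept7 is marked as failed in the deposited table and is not given.

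After thapsigargin a gene was called higher or lower when it differed by 1 or more on the log2(FPKM + 1) scale, which is 2-fold for well-expressed genes and understates the change of low ones. Of 11780 genes that reached FPKM 1 in either library, 6.04% were higher and 28.2% lower, with a median difference of -0.52. In low-methylation bins 225 of 3203 such genes were higher (7.02%) and 977 lower (30.5%), both near the background. Centred on the median of expressed genes, the split became 501 higher and 495 lower. Near-equal counts follow largely from the centring itself, since the median difference in low bins was -0.50. Whether library scaling has a part in the excess of lower genes was not tested. The shares by class that follow were not centred. In gene-rich low bins 206 of 3071 genes (6.71%) were higher and 951 (31.0%) lower.

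In gene-poor low bins 19 of 132 genes were higher (14.4%, Wilson interval 9.41 to 21.4%), against 5.10% in other gene-poor bins, and 26 were lower (19.7%, 13.8 to 27.3%), against 28.9%. Their median difference was -0.20, against -0.59 in other gene-poor bins. These genes also had a median of 1.24 annotated splice junctions per kb of transcript, against 2.87 in other gene-poor bins, and the part of this in the difference was not tested. Klf10, a zinc finger factor of the immediate early kind, was at FPKM 10.8 untreated (deposited interval 10.4 to 11.3) and 131 treated (129.99 to 132.25), a difference of 3.48 on the log2 scale. Nr4a3, an orphan nuclear receptor, was at 0.785 and 14.3 (3.10), and Wnt11, a secreted signal, at 0.929 and 12.7 (2.83). Pdgfb, a growth factor chain, was at 1.39 and 12.9 (2.55), and the stress-induced Gadd45g at 65.1 and 323 (2.30). Among the other higher genes were Atf3, a stress-induced partner in the ATF and CREB family (13.3 and 59.9), Jun (30.1 and 75.8) and Fosl2 (33.7 and 94.5), both subunits of AP-1, Klf4 (17.8 and 38.6) and Bdnf (3.35 and 11.9). Of the 19, Bdnf, Ube2ql1, Rn45s, Dlk1 and Cxxc5 lay in bins low throughout.

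The genes lower in gene-poor low bins were led by Dpysl3, a neuronal cytoskeletal regulator, at 50.7 untreated and 2.85 treated, a log2 difference of -3.75. Cox7c, a subunit of cytochrome oxidase, was at 61.6 and 5.22 (-3.33), and Ngfr, the low-affinity nerve growth factor receptor, at 45.2 and 5.38 (-2.86). The locus 6820431F20Rik, whose symbol has 2 loci, was at 27.3 and 4.56 (-2.35). Msi1, an RNA-binding protein of stem cells, was at 5.94 and 0.443 (-2.27). Rybp, a Polycomb component, was at 16.4 and 2.62 (-2.27), and Ezh2, the Polycomb methyltransferase, at 13.7 and 2.19 (-2.20). The signalling genes Irs1 (15.3 and 3.43) and Wnt5a (31.9 and 8.03) were lower as well.

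In gene-rich low bins the largest increases were partly at overlapping loci. Il11, a cytokine of the interleukin-6 family, was at FPKM 0.667 untreated and 45.2 treated (4.79), in a bin averaging 41.1%. Snx22 (0.247 and 39.8) overlaps Ppib, and Fosl1, an AP-1 subunit (0.372 and 32.5), overlaps Ccdc85b, so reads may be divided between the partners. Snord22 was listed at 0 untreated and at 135 treated, while Snhg1, which hosts it, was at 68.3 and listed at 0. The largest decreases were Ppia (544 and 0.0999), Rpl28 (135 and 0.873), Snhg1, Crip1 (219 and 2.42) and Rps10 (73.2 and 0.299). Ppia and ribosomal protein genes have many near-identical processed copies, so their values are uncertain.

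The clustered families in low bins can be set beside the 6.04% higher and 28.2% lower of all expressed genes. Of 29 Hox genes that reached FPKM 1 in either library, 4 (13.8%) were higher after thapsigargin, among them Hoxb9 (log2 difference 2.35), Hoxc13 (0.0386 and 2.84, 1.89) and Hoxb2 (5.83 and 16.2, 1.33). Hoxa9 was the only one lower (3.45%), at 1.66 and 0.317 (-1.01). Of 26 replication-dependent histone genes, 6 (23.1%) were higher and 12 (46.2%) lower. The linker histone Hist1h1c was at 89.7 and 224, whereas the 2 loci of Hist2h2aa1 were at 13.7 and 13.4 untreated and listed at 0 treated. These transcripts mostly lack a poly(A) tail and come from near-identical copies, so their values are uncertain. Of 27 clustered protocadherins 0 were higher and 9 (33.3%) lower, the latter near the share of all expressed genes, with Pcdhgc3 the most abundant (122 and 41.3).

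Peaks were assigned to bins by their centres, and the lists are not compared with each other in number, since their scores are on different scales. Only peaks centred in eligible autosomal bins were counted. These were 7221 of 7317 untreated CEBPB peaks, 7657 of 7861 thapsigargin CEBPB peaks and 9829 of 10109 ATF4 peaks. ATF4, the transcription factor induced by endoplasmic reticulum stress, had 2991 of its 9829 counted peaks in low-methylation bins, or 30.4% (29.5 to 31.3%) in 10.0% of the bins. An ATF4 peak was present in 65.9% of low-methylation bins, against 28.2% of all bins. The number per 10 bins was 16.5 in gene-rich low bins and 7.39 in other gene-rich bins, and 5.76 against 1.60 in gene-poor ones. At every number of loci the value was higher in low bins, from 1.40 against 0.68 with 0 loci to 22.6 against 11.3 with 6 or more.

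Most ATF4 peaks lay in CpG-dense sequence. Of those in low bins, 93.7% had their centre in a CpG-dense window and 78.8% within 2 kb of a locus end. The median methylation over these peaks was 0.155%, against 0.146% for peaks in other bins. Set against the CpG-dense sequence present, low bins had 2.29 ATF4 peaks per 1000 measured cytosines of dense windows, and other bins 2.81. The higher number per bin was therefore not seen per dense cytosine. With bins chosen by their mean outside dense sequence, 5.85% of ATF4 peaks lay in the chosen bins, below the 10.0% of bins. In bins low throughout the number was 5.92 per 10 bins, and in the other low bins 15.9.

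CEBPB, a basic leucine zipper factor of fibroblasts and stress responses, showed another pattern. Of 7221 untreated peaks, 815 lay in low bins (11.3%, 10.6 to 12.04%), and of 7657 peaks after thapsigargin, 891 (11.6%, 10.9 to 12.4%), against 10.0% of the bins. A peak was present in 24.3% of low bins untreated, against 21.8% of all bins, and in 28.3% treated, against 26.2%, both close to the background. With the same alternative choice of bins the shares were 2.09% untreated and 6.91% treated. Gene-poor low bins had fewer untreated peaks, 1.81 per 10 bins against 2.70 in other gene-poor bins. In low bins with 0 loci there were 5 untreated peaks in 222 bins, 0.225 per 10 bins against 1.86 in other bins with 0 loci. Among the 157 of these bins with at least 50% of CpG cytosines measured the value was 0.318, against 1.87. Gene-poor bins low throughout had 16 untreated peaks in 448 bins, 0.357 per 10 bins. In the treated list the values for bins with 0 loci were 2.12 and 2.33 per 10 bins.

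**Figure D5:**
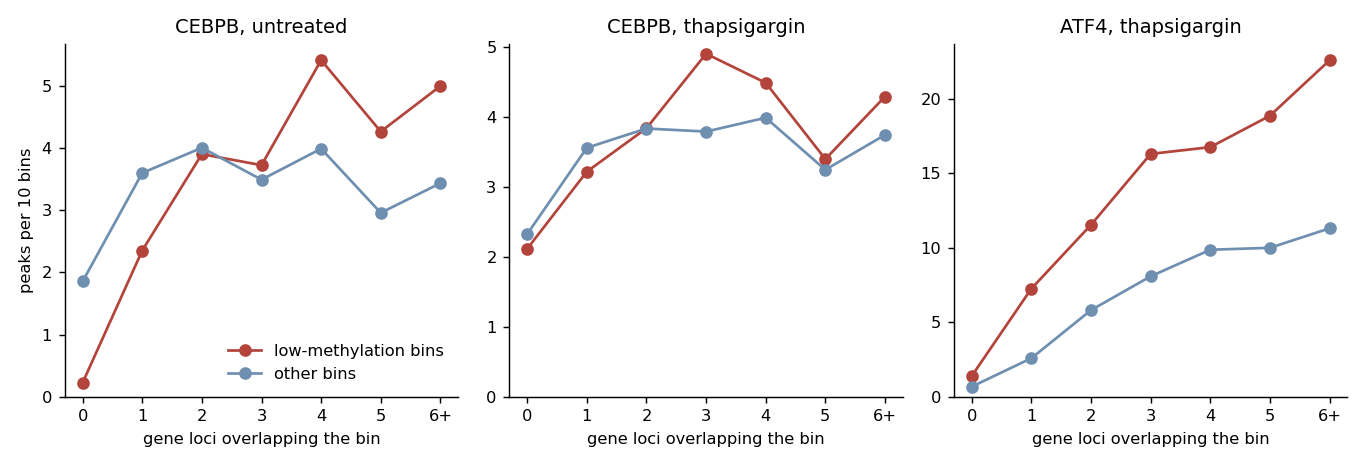
Peaks per 10 bins (y axis, a different scale in each panel) by the number of gene loci overlapping the bin (x axis) for the 3 peak lists; red marks low-methylation bins and blue other bins. The ATF4 line of the low bins is above that of other bins at every number of loci, and the untreated CEBPB line starts below it at 0 loci (0.225 against 1.86) and is above it at 4 or more (5.42 against 3.99 at 4).

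A single bin, chr11:3000001-3100000, held 35 thapsigargin CEBPB peaks and 14 ATF4 peaks but 0 untreated CEBPB peaks. Its mean methylation was 56.7%, and 72.0% of its CpG cytosines were measured. It overlaps Pisd-ps3, Sfi1 and Pisd-ps1 and lies at the start of the assembled sequence of the chromosome. Without it 11.2% of thapsigargin CEBPB peaks and 30.3% of ATF4 peaks lay in low bins. The raised point at 3 loci in the treated CEBPB list, 4.91 per 10 bins, rests on it, being 3.83 without it and 3.79 in other bins.

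The CEBPB peaks of low bins lay on less methylated cytosines than those of other bins, with a median of 20.9% against 40.0% untreated and 23.5% against 60.7% treated. This compares like with the selecting measure and is a description. Untreated methylation was used for both lists. A value was available for 751 of 815 untreated peaks in low bins and 5601 of 6406 in other bins. For treated peaks it was available for only 589 of 891 and 3776 of 6766. In gene-rich bins the medians were 18.7% against 37.0% untreated and 17.7% against 55.9% treated. In gene-poor bins they were 31.1% against 41.1% untreated and 54.25% against 62.4% treated. In gene-poor low bins 12.7% of untreated CEBPB peaks were in CpG-dense windows, against 85.6% of the ATF4 peaks there.

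The peaks with the highest scores, which are the authors' own values, were looked at one by one. The highest untreated CEBPB score in a gene-rich low bin, 886, was 1.804 kb from Myc, a growth-regulating factor (FPKM 12.9 untreated and 138 treated), with a methylation of 0.269% over 26 cytosines. In a gene-poor bin it was 501, at 3.07 kb from Irf2bp2, a transcriptional cofactor (28.7 and 35.6). The highest ATF4 score in a gene-rich low bin, 245, was 0.205 kb from Chac1, a glutathione-degrading enzyme and known ATF4 target (16.8 and 168), with 0.746% over 63 cytosines. In a gene-poor bin it was 77.4, at 29.5 kb from Rbfox2, a splicing factor (45.3 and 24.7). The highest thapsigargin CEBPB score in a gene-rich bin, 93.5, was 3.59 kb from Sesn2, a stress-induced sestrin (22.3 and 21.0). In a gene-poor bin it was 76.1, at 23.5 kb from Gm7102, whose FPKM was under 1 in both libraries (0.700 and 0.309).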

How the data were processed

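The 2 BS-seq libraries were merged by the authors into 1 deposited table of percent methylation per cytosine, without read depth. Of its entries, 39464349 marked CpG were used and 83035 marked heterozygous were left out. The RNA tables are deposited FPKM values per locus (23699 and 23695 entries, 23583 in both), with 1 library each. The 3 deposited peak lists give a score per peak on a scale that is not explained in the sources used here, nor is the control. Per the submitters' processing notes, reads were handled with CASAVA (1.7 to 1.8.2), Bowtie and Novoalign on mm9.

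Bin means, shares with 95% Wilson intervals, and medians were computed with Python 3.11.15, numpy 2.4.6, pandas 2.3.3 and pysam 0.24.0, and checked on simulated data. Intervals cover counting error only. Genes were assigned by midpoint, with a pseudocount of 1. Named bins were the 5 lowest of each class and the longest runs (2 runs tie in length). Named genes were the highest in those bins, the 10 highest of each class, the 5 largest increases and decreases of each class (among symbols with 1 locus, plus 6820431F20Rik), and family lists; Atf3, Jun, Fosl2, Klf4, Bdnf, Ezh2, Irs1 and Wnt5a were added after their values were seen. Members and lists were chosen with earlier results of these data known. Alternatives are given in the closing section. Some named items are not reported here.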

Additional observations from a re-analysis of the deposited data

How the results depend on the processing

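No paired analysis was possible because each group has 1 library or, for BS-seq, 1 merged column, and for the same reason leaving out a library was not run. Of 101 alternative values, 46 stayed within the limits (the Wilson interval of a share, 1.5 times a count, 3 digits of a methylation value) and 55 did not. The cause of these shifts was not tested.

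How the bins were chosen mattered most. Bins chosen by their mean outside CpG-dense windows and locus ends (limit 63.3%, median there 60.8%) included 1766 gene-poor bins (25.5% gene-rich, below the 31.2% of all bins), with 11.3% of genes at FPKM 1 or more in gene-poor and 17.1% in gene-rich bins, 2.09, 6.91 and 5.85% of the untreated CEBPB, thapsigargin CEBPB and ATF4 peaks, and 41 genes higher and 97 lower. The ATF4 share thus moved from above to below the share of bins. Bins chosen by their median (limit 67%, 61.6% outside dense sequence) included 1399 gene-poor bins, with 19.6% and 43.9% of genes at FPKM 1 or more, 5.55, 8.48 and 16.7% of peaks, and 130 genes higher and 484 lower.

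With 1000 cytosines or more per bin, the limit was 56.8%, the median outside dense sequence 68.01%, gene-poor bins 449, the gene-rich share 60.0% and the peak shares 10.3, 10.4 and 26.8%. With the lowest 5% of bins kept, the limit was 53.6%, the median outside dense sequence 65.3%, gene-poor bins 377, the gene-poor share 34.5%, the peak shares 5.82, 6.06 and 16.8%, and 140 genes were higher and 575 lower. Bins starting at position 50000 gave 57.6%, 67.1%, a gene-poor share of 47.9% and 12.7% of thapsigargin CEBPB peaks. Plus-strand cytosines alone gave 57.7% and 66.9%. Counting gene-rich from 3 loci gave 1347 gene-poor bins and a gene-rich share of 59.9%. A threshold of FPKM 0.5 gave 47.4% and 62.2%, and FPKM 5 gave 29.7% and 44.8%. The upper scores held 13.4% of thapsigargin CEBPB peaks in low bins. A pseudocount of 5 gave 138 genes higher and 572 lower, and centring on the median of expressed genes 501 and 495. Chosen after seeing the data, the limit to bins with 50% or more of CpG cytosines measured gave 57.99% and 67.6%, and moved no other result past its limit.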

Other observations

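The same rule was applied to chromosome X of these female cells for description. Of 1546 bins of chromosome X with 200 or more CpG cytosines, 86 (5.56%) were at or below the autosomal limit. The median bin mean was 65.9% on chromosome X and 68.05% on the autosomes. In gene-rich bins the cytosines of CpG-dense windows had a median mean of 28.0% on chromosome X (quartiles 22.1 and 57.8%, 320 bins) and 10.0% on the autosomes (1.99 and 29.3%, 7415 bins).

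Genes in the 982-gene remainder, which lay in bins low outside dense sequence but above the limit for the whole mean, were almost silent, with 39 (3.97%) at FPKM 1 or more and 840 listed at 0 in the untreated library.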
